A study of Drosophila melanogaster with 2 samples.

Results

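Of the 30000 binding peaks called on both replicates of CG7101-GFP together, 267 had their summit in pericentric heterochromatin or on chromosome 4 of Drosophila melanogaster. Members were chosen by position alone: all of chromosome 4, and the parts of 2L above 22000000, 3L above 22960000, 3R below 4175000 and X above 22600000 in dm6 coordinates. Chromosome 4 held 131 of them, the 2L block 51, the 3L block 43, the X block 29 and the 3R block 13. The remaining euchromatin of 2L, 3L, 3R and X, which held 24050 summits, was the comparison.

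The binding was measured by chromatin immunoprecipitation and sequencing in whole adult females of a transgenic line that stably expresses CG7101 with green fluorescent protein at its C-terminus, with an antibody against that tag. There was 1 group of 2 biological replicates, the age of the flies is not known, and no line without the tag was analysed here. Each replicate also had its own list of 30000 peaks, and a further list held the 6486 pooled peaks kept by the authors' step on the irreproducible discovery rate (IDR), here called IDR peaks. Strength is the signal that the authors' peak caller gave each peak, on a scale that is not stated, and it is compared only within a list.

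Pericentric heterochromatin is the compact, repeat-rich DNA that flanks the centromeres, where nucleosomes carry methylated lysine 9 of histone H3 and bind HP1a. It nevertheless holds active genes, many of them long and some of them essential, which are transcribed within this chromatin. Chromosome 4 of Drosophila, the dot chromosome, mixes such marks with a normal density of genes, and its active genes are bound by Pof, a protein specific to that chromosome.

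The promoter summits that carry the results below are shown first, from the Release 6 assembly of RefSeq, each 5' to 3' in the direction of the gene. Each sequence is taken from the 100 bases either side of the summit. Where the summit lies less than 100 bp from the transcription start site (TSS), the sequence goes no further than 30 bases past it. The first set holds the strongest summits at ribosomal protein genes, which lead the 3L and 2L blocks and chromosome 4; capitals mark the annotated TSS with 5 bases on each side. They are RpS3A (chr4:67177-67345, minus strand), RpL10 (chr3L:23095441-23095556, minus strand), RpL5 (chr2L:22536620-22536765, minus strand) and RpL15 (chr3L:27267184-27267286, plus strand).
RpS3A: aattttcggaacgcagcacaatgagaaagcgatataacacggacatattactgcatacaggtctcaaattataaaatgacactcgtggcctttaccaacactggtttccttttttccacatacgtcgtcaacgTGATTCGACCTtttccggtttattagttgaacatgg
RpL10: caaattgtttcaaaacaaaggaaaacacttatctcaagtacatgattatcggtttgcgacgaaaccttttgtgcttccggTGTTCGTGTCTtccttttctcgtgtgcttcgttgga
RpL5: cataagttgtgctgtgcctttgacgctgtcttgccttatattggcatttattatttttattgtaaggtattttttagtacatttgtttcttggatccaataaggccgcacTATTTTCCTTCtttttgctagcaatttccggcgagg
RpL15: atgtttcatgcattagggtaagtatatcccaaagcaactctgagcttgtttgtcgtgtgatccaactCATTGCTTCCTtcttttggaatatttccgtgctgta

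The second set holds members with a word of known promoter elements. Capitals mark TATCGATA, the core of the DNA replication-related element (DRE), in PlexA (chr4:1027200-1027400, minus strand) and vtd (chr3L:27136391-27136555, plus strand). They mark GGTCACACT, the core of Motif 1, in Rad23 (chr4:307953-308123, plus strand) and Dyrk3 (chr4:1230683-1230863, minus strand).
PlexA: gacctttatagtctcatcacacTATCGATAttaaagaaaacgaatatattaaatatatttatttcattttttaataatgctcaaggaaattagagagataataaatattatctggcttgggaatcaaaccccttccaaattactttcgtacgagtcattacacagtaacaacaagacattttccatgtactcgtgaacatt
vtd: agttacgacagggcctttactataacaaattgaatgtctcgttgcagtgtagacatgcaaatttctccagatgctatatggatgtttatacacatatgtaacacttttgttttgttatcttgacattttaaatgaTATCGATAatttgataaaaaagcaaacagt
Rad23: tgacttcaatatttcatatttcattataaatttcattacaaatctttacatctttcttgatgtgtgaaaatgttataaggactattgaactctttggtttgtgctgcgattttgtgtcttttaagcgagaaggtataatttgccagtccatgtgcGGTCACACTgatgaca
Dyrk3: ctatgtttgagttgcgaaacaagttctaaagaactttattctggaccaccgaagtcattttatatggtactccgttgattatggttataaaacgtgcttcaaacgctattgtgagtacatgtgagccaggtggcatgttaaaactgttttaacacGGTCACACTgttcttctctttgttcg

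The last sequence is the strongest summit inside an annotated transposable element, an INE-1 copy in an intron of CG46466 (chr4:662265-662465, minus strand, 201 bases and no capitals). All of the bases in its window were unique in the assembly.
CG46466: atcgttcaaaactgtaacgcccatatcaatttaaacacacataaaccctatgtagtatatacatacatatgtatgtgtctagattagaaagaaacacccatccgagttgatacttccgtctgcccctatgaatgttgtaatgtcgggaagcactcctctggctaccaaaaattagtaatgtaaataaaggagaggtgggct

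CG7101-GFP summits were sparse in heterochromatin, and the shortfall was far smaller at promoters than elsewhere. The density was 20.6 summits per Mb (95% exact Poisson interval 18.2 to 23.2) over 13 Mb of sequence, against 252 (249 to 255) in euchromatin, a ratio of 0.0816 (exact binomial test of rates, adjusted exact p = 1e-300, the smallest value kept). Within 500 bp of an annotated TSS, heterochromatin held 409 summits per Mb (346 to 482) and euchromatin 651 (638 to 665), a ratio of 0.629 (adjusted exact p = 2.59e-09). Further from any TSS it held 9.59 per Mb (7.96 to 11.5) against 183 (180 to 186), a ratio of 0.0525 (adjusted exact p = 1e-300). The 2 replicates taken alone gave promoter ratios of 0.655 in replicate 1 and 0.774 in replicate 2, and ratios of 0.051 and 0.0668 elsewhere. All p-values here cover counting error over peaks, which are not replicates of the flies.

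The unique part of the sequence was measured beside these densities. A base was called unique when the 50-base stretch that starts at it occurred only there in the assembly. This held for 50.8% of heterochromatic bases and 94.7% of euchromatic ones, and for 88.8% and 97.5% of the bases near a TSS. Over unique sequence alone, heterochromatin held 40.5 summits per Mb against 266, a ratio of 0.152 (adjusted exact p = 1e-300). At promoters the densities were 461 and 668 per Mb (ratio 0.69, adjusted exact p = 2.83e-06), and elsewhere 19.3 and 194 (ratio 0.0993, adjusted exact p = 1e-300). Of the 267 summits, 254 had a window that was wholly unique. How the peak caller treated reads that match several places is not given, and its part in the rest of the shortfall was not tested.

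**Figure D1:**
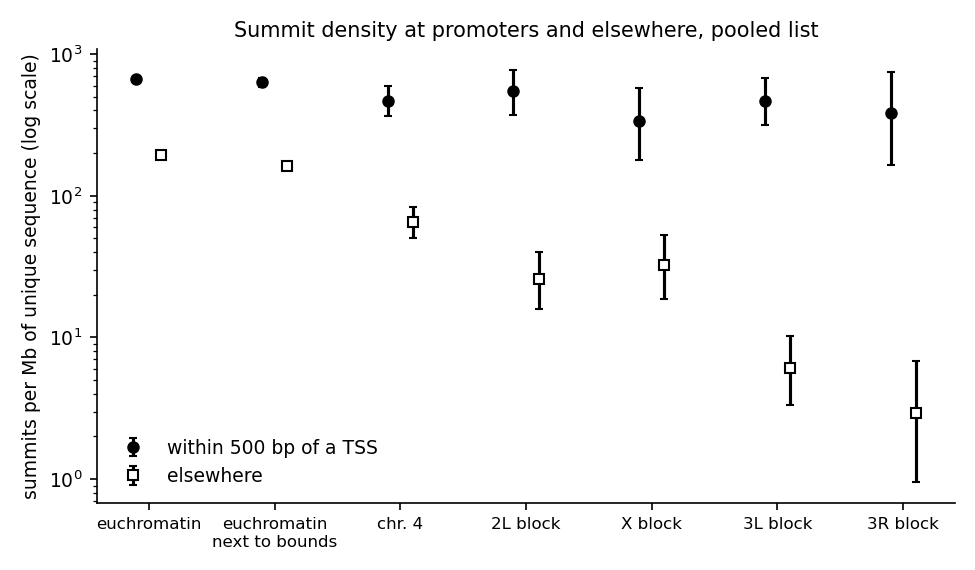
Summits per Mb of unique sequence (log axis) in euchromatin, in the 2 Mb of euchromatin next to each bound, on chromosome 4 and in the 4 pericentric blocks, with 95% exact Poisson intervals. Filled circles are positions within 500 bp of a TSS and open squares all others: promoter densities lie between 337 and 668, while the others run from 194 down to 2.93.

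The 5 blocks differed much more away from promoters than at them. Promoter density per Mb of unique sequence was 470 (363 to 599) on chromosome 4, 546 (371 to 774) in the 2L block, 470 (314 to 674) in 3L, 381 (164 to 750) in 3R and 337 (179 to 576) in X. These intervals overlap one another. Elsewhere the density was 65 (50.3 to 82.7) on chromosome 4, 32.7 (18.7 to 53.1) in X, 25.9 (15.8 to 40) in 2L, 6.1 (3.33 to 10.2) in 3L and 2.93 (0.952 to 6.84) in 3R. Chromosome 4 lay above all 4 pericentric blocks except X, whose interval overlaps its own, and 3L and 3R lay below 2L and X.

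Chromosome 4 had a higher density of distal summits than the 4 pericentric blocks combined. Its density away from promoters was 55.6 per Mb against 4.81 for the 4 blocks together, a ratio of 11.6 (exact binomial test, adjusted exact p = 6.68e-35). The ratio was 6.22 over unique sequence (adjusted exact p = 3.6e-21), 11.1 in replicate 1 and 15.6 in replicate 2. The 3L and 3R blocks, with 5.04 and 4.15 of the 11.6 Mb, weigh most in the combined density. Over unique sequence the distal density was 32.7 per Mb in X and 25.9 in 2L, but 6.1 in 3L and 2.93 in 3R. The interval of X overlapped that of chromosome 4. Promoter windows covered 10.9% of chromosome 4 and 1.82% of the 4 blocks, and the part of gene density was not tested. At promoters the pooled densities were 449 and 383 per Mb, a ratio of 1.17 that did not pass the test (adjusted exact p = 0.382); the ratio was 1.39 in replicate 1 (adjusted exact p = 0.112) and 1.68 in replicate 2, where it passed (adjusted exact p = 0.00308). Chromosome 4 held 190 summits in the list of replicate 2 and 137 in that of replicate 1, whereas the pericentric blocks held 141 and 133. Of the chromosome 4 summits, 103 of 137 in replicate 1 but 101 of 190 in replicate 2 overlapped a peak of the other replicate. What set the additional peaks of replicate 2 was not tested.

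Each block was below the euchromatin it was compared with. Chromosome 4 had 98.4 summits per Mb, 0.39 times the density of the whole euchromatic set (adjusted exact p = 5.68e-36). The 2L block had 0.141 times the density of the rest of 2L, X 0.121 times, 3L 0.0318 times and 3R 0.0127 times, and all of these passed the test. Chromosome 4 held the most members and 3R the fewest in the lists of both replicates too, with 137 and 10 in replicate 1 and 190 and 11 in replicate 2.

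**Figure D2:**
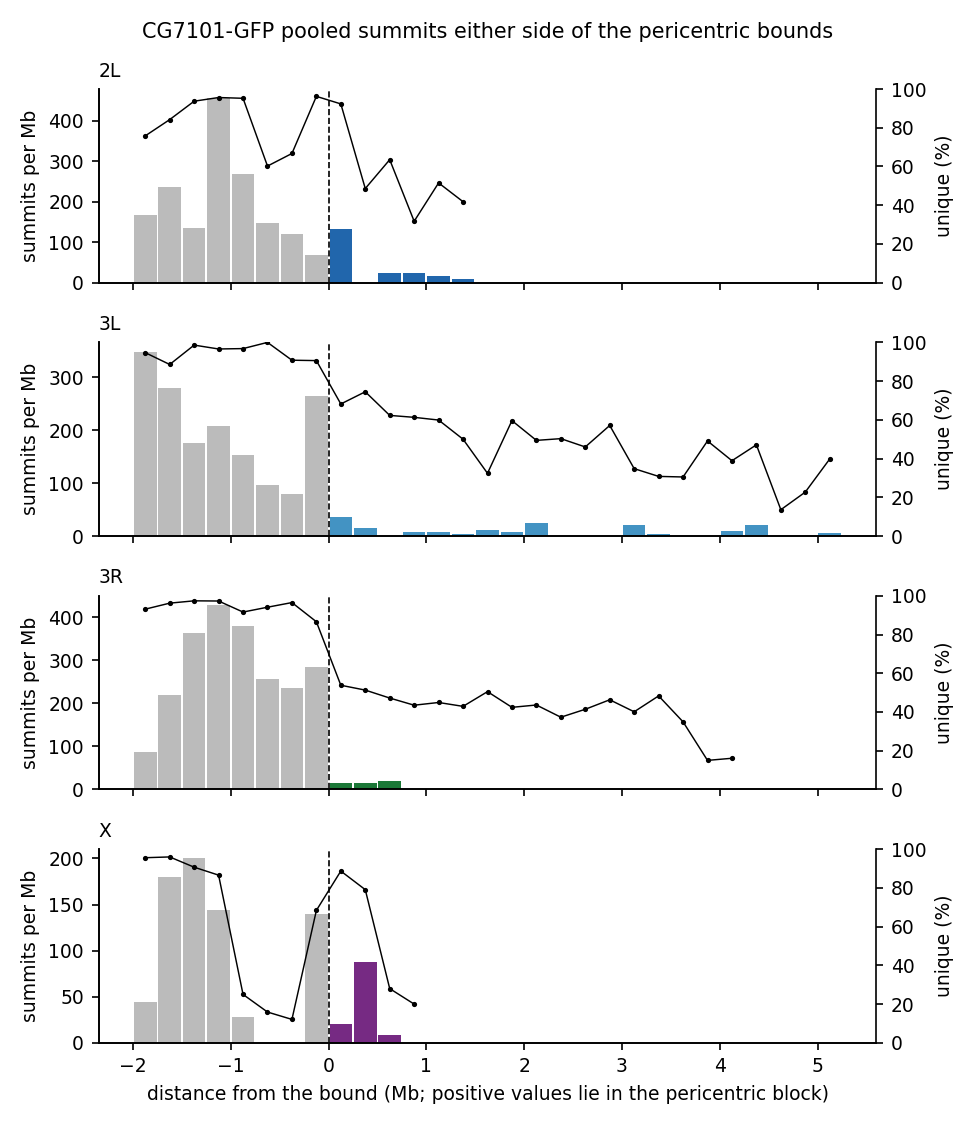
Summits per Mb in bins of 250 kb against distance from the bound of each arm (coloured bars inside the pericentric block, grey bars in euchromatin). The black line on the right axis is the percent of bases that start a unique 50-base stretch. On 2L the first bin inside holds 33 of the 51 members, and on 3R no bin further than 0.75 Mb inside holds a summit.

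Members were not spread evenly along the blocks. On 2L, 33 of the 51 summits lay in the first 250 kb past the bound, where 92.3% of bases were unique, and the next 250 kb held 0. On X, 22 of 29 lay between 250 and 500 kb inside the bound. On 3R, no summit lay in the 3586818 bp between the centromere-side end of the assembled arm and the promoter of Parp1, which encodes a poly(ADP-ribose) polymerase, although 1.42 Mb of this stretch was unique. That stretch holds Myo81F, an unconventional myosin gene of 1965857 bp, and Pzl, a Piezo-like channel gene of 709421 bp, neither of which had a summit inside its transcribed span. On 3L the longest empty stretch measured 0.892 Mb, of which 0.464 Mb was unique. On chromosome 4 it measured only 0.103 Mb, and bins of 250 kb held 15 to 36 summits, apart from the last, partial bin next to the end of the assembled sequence, which held 1.

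The summits next to the bounds were of ordinary or low strength. The nearest member inside was that of tio on 2L (strength 46.8, 19247 bp inside), of lncRNA:CR45758 on 3L (30.7, 663 bp), of CG12581 on 3R (91, 395 bp) and of lncRNA:CR44997 on X (47.4, 57193 bp). The nearest summits outside had strengths of 42.2 on 2L, 35.2 on 3L, 38 on 3R and 38.5 on X. By contrast, the strongest peak of the whole pooled list (11013), at Chro, lay 81.1 kb outside the 3L bound; the strongest member had 639.

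Neighbouring summits formed clusters. Chained at 5 kb, the 267 summits made 108 clusters, of which 53 were single summits and 37 had 3 or more. The largest, with 17 summits over 31692 bp of 2L, ran from CG3651 over the promoter of CycK, which encodes a cyclin partner of a transcriptional kinase, and through CG42748. Its strongest summits were those of CycK (154; 85.4 in replicate 1 and 69.5 in replicate 2) and of the 5' end of CG42748 (147; 66 and 82). On chromosome 4 the largest clusters were 12 summits around apolpp and Zyx and 11 from ci to pan, which include RpS3A. Summits of a cluster can share reads, so they are not independent.

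The 3 strongest members lay at promoters of chromosome 4. RpS3A, a protein of the small ribosomal subunit, had the strongest summit (chr4:67075-67416, pooled strength 639, rank 851 of 30000), 38 bp upstream of its TSS, with 366 in replicate 1 and 274 in replicate 2. The summit of gw, whose product GW182 acts in silencing by microRNAs, followed (617; 380 and 241), 118 bp upstream of a TSS and within an intron of a longer isoform. That of PlexA, a receptor for semaphorins in axon guidance, had 562 (281 and 275) and lay 199 bp upstream. These 3 kept high strengths in both replicates, and gw and RpS3A were the only members among the 1000 strongest pooled peaks. Members within the first 3000 numbered 9.

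Of the 11 IDR peaks away from promoters, 9 were on chromosome 4, which held 32 of all 41 IDR peaks among the members. Promoters held 71.9% of the IDR peaks of chromosome 4 and 77.8% of those of the pericentric blocks, so the 9 are near the overall share. The next strongest member after PlexA lay in the 3' UTR of Cals, the calsyntenin gene (496; 228 and 261), 9626 bp downstream of the TSS. It was followed by an intergenic summit, 3907 bp upstream of zfh2, a zinc finger homeodomain gene (451; 234 and 215). Others were an intergenic summit 1240 bp from lncRNA:CR43437 (283; 148 and 130), an intronic one of eIF4G1, the scaffold of the cap-binding complex (257; 149 and 101), one in an intron of the kinase gene Asator (229; 141 and 103), and one 753 bp upstream of ey, the Pax6 gene of eye development (210; 103 and 98.8). All of them were IDR peaks. In the pericentric blocks 2 of the 9 IDR peaks lay outside promoters. They were in the 5' UTR of Clamp, 506 bp from the TSS, and in an intron of l(3)80Fg.

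In the pericentric blocks, ribosomal protein genes led 2L and 3L. RpL10 on 3L, a protein of the large subunit, had a strength of 430 (259 in replicate 1 and 189 in replicate 2), with its summit in the 5' UTR 15 bp past the TSS. RpL5 on 2L had 308 (168 and 143) and RpL15 on 3L 196 (126 and 68). The other ribosomal protein gene there, RpL21 on 2L, had 107 (58.5 and 53.5) and was not an IDR peak. With RpS3A, all 5 cytosolic ribosomal protein genes of these regions had a promoter summit in the pooled list and in both replicates, and 4 had an IDR summit. Over all protein-coding genes of these arms, the corresponding shares were 62.5% and 33.1%.

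Other leading members of the pericentric blocks were of mixed strength. On 2L, Clamp, which encodes a zinc finger protein of GA repeats that takes part in dosage compensation, had 267 (140 and 137). On 3L the intronic summit of l(3)80Fg had 154, but with 43.2 in replicate 1 and 101 in replicate 2, and only 84.1% of its window was unique. On X the summit upstream of stnA and stnB, a pair of genes for synaptic vesicle recycling that share a transcript, had 203 (119 and 86.2), that of lncRNA:CR45010 in the 5' UTR of FucTC 201 (99.6 and 107), and that of asRNA:CR45009 119 (22.3 and 70.4). On 3R no member was an IDR peak, and the strongest were CG12581 (91), CG41099 (73.2) and Parp1 (51.4; 17.7 and 28.9).

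The remaining members of the 20 strongest were all on chromosome 4. They were apolpp, the apolipophorin of lipid transport (252; 151 and 114), myo, the TGF-beta ligand myoglianin (240; 116 and 128), ATPsynbeta, a catalytic subunit of ATP synthase (239; 83.5 and 160), and Tdg, a thymine DNA glycosylase (232; 140 and 93.2). Below them came ci, the transcription factor of Hedgehog signalling (229; 114 and 114), and Rad23, of nucleotide excision repair (220; 102 and 123). Among the genes of this paragraph, ATPsynbeta had the lowest strength in replicate 1 and the highest in replicate 2.

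**Figure D3:**
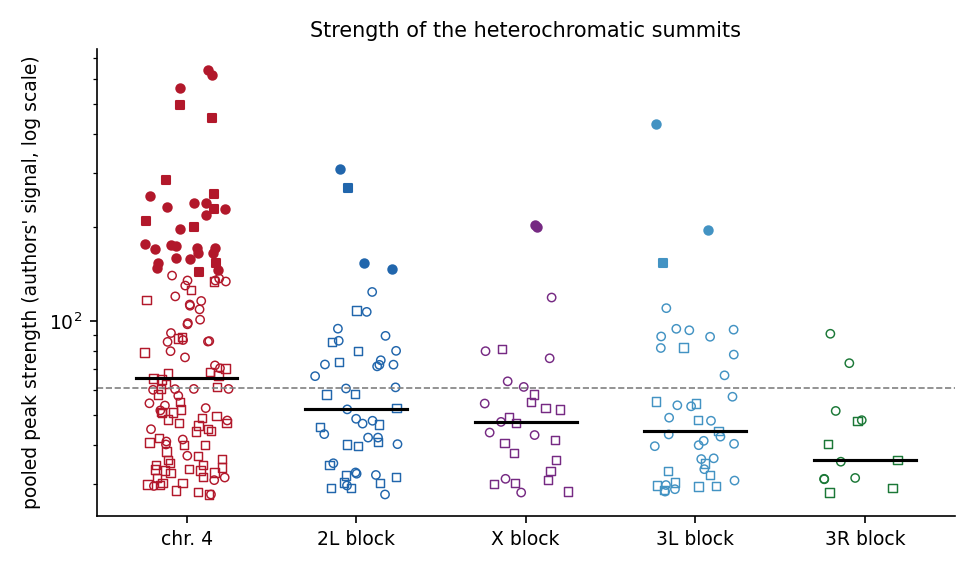
Pooled peak strength (authors' signal, log axis) of each of the 267 members by block. Circles are promoter summits and squares others, filled symbols are IDR peaks, black bars are medians, and the dashed line is the euchromatic median of 60.9; the medians run from 65.4 on chromosome 4 to 35.7 in the 3R block.

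As a group the members were weaker than euchromatic summits. The median strength was 53.2 against 60.9, and 42.3% of members (36.3 to 48.5, exact Clopper-Pearson interval) exceeded the median of these arms against 50.1% (Fisher's exact test, adjusted exact p = 0.0205). The difference did not pass in the list of replicate 1 alone (adjusted exact p = 0.0988) or against the 2 Mb of euchromatin next to the bounds (adjusted exact p = 0.245). Without chromosome 4 the share was 32.4% (24.6 to 40.9, adjusted exact p = 0.000108). By block, the share passed against its own arm in 3L, 3R and X but not in 2L, where it was 41.2% against 49.2% (adjusted exact p = 0.33). Chromosome 4 had 52.7%, above the pericentric blocks by 20.3 percentage points (adjusted exact p = 0.00297; 27.6 in replicate 1 and 13 in replicate 2). Median strengths of promoter summits in the pooled list were 112 on chromosome 4, 53.2 in the pericentric blocks and 94.4 in euchromatin. In the list of replicate 1 they were 49.2, 32 and 54.1, and in that of replicate 2 44.8, 30.1 and 46.5. Chromosome 4 thus lay above euchromatin in the pooled list only, and above the pericentric blocks in each list.

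The share of IDR peaks followed the same order. It was 15.4% of members (41 of 267) and 21.7% of euchromatic summits (adjusted exact p = 0.0188), a difference that did not pass against the 2 Mb next to the bounds (adjusted exact p = 0.134). Chromosome 4 had 32 such peaks among 131 (24.4%) and the pericentric blocks 9 among 136 (6.62%), and these 2 shares differed (adjusted exact p = 0.000306; the differences were 18.7 percentage points in replicate 1 and 11 in replicate 2). Since the IDR peaks are the strongest rows of the pooled list, this is not evidence apart from strength.

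A smaller share of members was found in both replicates. Of the 267, 176 overlapped a peak of each replicate, 29 only replicate 1, 43 only replicate 2, and 19 neither. The share in both was 65.9% (59.9 to 71.6) against 74.4% in euchromatin (adjusted exact p = 0.00567), and 62.5% without chromosome 4 (adjusted exact p = 0.00432). Counted from the list of replicate 1 the difference did not pass (adjusted exact p = 0.126). Among promoter summits alone it was 80.8% against 87.2%, a difference that did not pass (adjusted exact p = 0.0527). CG33941 on chromosome 4 (148) was the 1 IDR peak among the members that overlapped no peak of replicate 1.

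**Figure D4:**
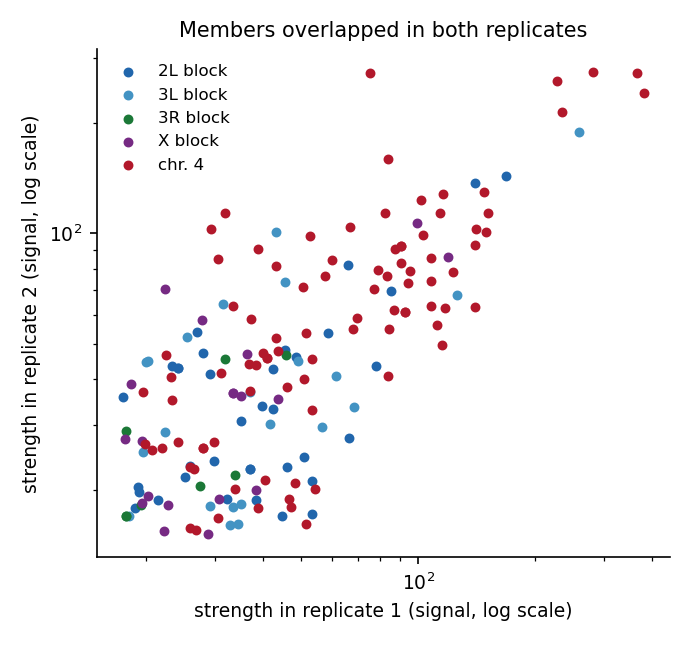
Strength in replicate 2 against strength in replicate 1 (authors' signal, both axes log) for the 176 members that overlapped a peak of each replicate, coloured by block. The highest points, among them gw, RpS3A, PlexA and RpL10, are high in both; where 2 members overlap the same replicate peak both take its value, as at RpS3A, whose weaker neighbour shares 274 in replicate 2 and has 75.4 in replicate 1.

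Promoters made up more of the members, and introns fewer. A summit within 500 bp of a TSS was seen in 54.7% of members (48.5 to 60.8) and 38.2% of euchromatic summits (adjusted exact p = 2.46e-07), with differences of 18.2 percentage points in replicate 1 and 15.6 in replicate 2. Among IDR peaks the difference of 11.9 points did not pass (adjusted exact p = 0.231). Introns held 20.6% against 42.1% (adjusted exact p = 1.2e-12), although they cover 43.6% of heterochromatic sequence and 39.7% of euchromatic sequence. Exons outside promoters held 12.4% against 8.27%, and intergenic sequence 12.4% against 11.5%, neither of which was tested. The exon difference was not kept in the list of replicate 1 (8.52% against 9.08%), and in that of replicate 2 the shares were 16% and 9.31%. Promoter summits lay a median of 26 bp upstream of the TSS in heterochromatin and 49 bp upstream in euchromatin, and 58.9% (50.5 to 67) and 66.6% (65.7 to 67.6) of them were upstream.

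Counted by gene, CG7101-GFP summits were present at many protein-coding genes of these regions, but few had an IDR summit. A pooled summit lay within 500 bp of a TSS of 103 of 190 genes, 54.2% (46.8 to 61.4), beside the background of 62.5% over all 11093 protein-coding genes of these arms. In replicate 1 the share was also 54.2%, beside 61.8% over all genes. In replicate 2 it was 62.1%, beside 61.7%, so the shortfall was not seen there. An IDR summit was present at 29 of the 190 genes, or 15.3% (10.5 to 21.2), beside a background of 33.1%. On chromosome 4, 44 of 80 genes had a pooled summit (55%) and 22 an IDR summit (27.5%). In the pericentric blocks 59 of 110 had a pooled summit (53.6%; 43.9 to 63.2), with 50.9% in replicate 1 and 52.7% in replicate 2, and 7 an IDR summit (6.36%; 2.6 to 12.7). On chromosome 4 the lists differed more, with 58.8% in replicate 1 and 75% (64.1 to 84) in replicate 2. The latter was above the 61.7% over all genes in that list. The genes were long, with a median of 8376 bp against 2164 bp in euchromatin.

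Shares were lower for noncoding RNA entries of the annotation and for pseudogenes. A promoter summit was found at 25 of 96 noncoding RNA entries (26%, interval 17.6 to 36), beside 29.6% in euchromatin. Short entries inside a microRNA gene are counted apart from it and can share its summit, as at mir-2491. These entries are therefore not all separate genes, and the interval treats them as independent. Of the pseudogenes, 2 of 42 had a promoter summit (4.76%, interval 0.582 to 16.2), beside 21.6%. The X block holds 15 of the 42, none with a promoter summit. Most of these are rRNA pseudogenes between 500 and 750 kb inside the bound, where only 28% of bases were unique. Such copies are not independent, and the part of repeated sequence in the low share was not tested. No tRNA gene of the annotation lay in these regions.

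In a list of developmental genes of chromosome 4, mostly regulators but with the muscle gene bt, 6 of 10 had a promoter summit and 2 an IDR summit. The strongest were ci (229) and lgs (172), which encodes a coactivator of Wingless signalling, followed by pan (140), the TCF factor of that pathway, Sox102F (137) and ey (116). The weakest was zfh2 at its promoter (44.9), whose strong summit lay upstream. Toy, the second Pax6 gene, mav, a TGF-beta ligand, sv, a Pax2 gene, and bt, which encodes a giant muscle protein, had none in the pooled list, and in replicate 2 toy and mav had 1 each.

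Neuronal and signalling genes of chromosome 4 were bound in 7 of 12 cases, 2 of them by IDR peaks. PlexA (562) stood well above the rest, which ran from Cadps (176), a factor of vesicle priming, and PlexB (135) down to Crk (47.9), an adaptor protein. The IDR peak of Cadps is also that of the neighbouring Dyrk3, which is counted in the next list. Gat, Syt7, dpr7, Ephrin and mGluR had no pooled promoter summit, but dpr7, Ephrin and mGluR had 1 each in replicate 2. Counted in the single lists, 6 of the 12 genes had a promoter summit in replicate 1 and 10 in replicate 2. Eph (72), the receptor of Ephrin, had 1 in the pooled list and replicate 2 but none in replicate 1.

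A further list of chromosome 4 genes, most of them for general cellular functions but with onecut and the ligand genes myo and Actbeta among them, had a promoter summit in 15 of 21 cases and an IDR summit in 11. Their strengths ran from 639 at RpS3A and 617 at gw to 51.6 at Asator. The strongest promoter summit of Zyx (158) is a promoter summit of apolpp too, so these are counts of genes and not of separate peaks. Kif3C, a kinesin gene, onecut, a homeodomain gene, and Actbeta, an activin ligand gene, had no promoter summit in any of the pooled and replicate lists, whereas ND-49, a subunit of complex I, had summits in replicate 2 only. Ank and Arl4 had promoter summits in the lists of both replicates but none in the pooled list. These lists were drawn up with earlier results of the series known, and their counts are read beside the background of 62.5% for a pooled summit and 33.1% for an IDR summit, or 55% and 27.5% over the genes of chromosome 4.

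Of the pericentric genes listed, 15 of 21 had a promoter summit and 4 an IDR summit, beside 53.6% and 6.36% over all protein-coding genes of the pericentric blocks and the background of 62.5% and 33.1%. The IDR summit of stnA and stnB is 1 shared peak. After RpL5, RpL15 and the stn pair came Dbp80, an RNA helicase gene (93.4), which had no promoter summit in replicate 1. Below it were vtd, which encodes the Rad21 subunit of cohesin (89.2), Set1, a methyltransferase of histone H3 lysine 4 (78), and su(f), of mRNA 3' end cleavage (75.9). The genes lt (42.2) and cta (60.7), which are classical heterochromatic genes of 2L, also had summits, at 21 and 53 bp from a TSS. AGO3, of the piRNA pathway, Snap25, a SNARE gene, Myo81F and Pzl had no promoter summit in any list. The gene nvd, of ecdysone synthesis, had 1 in replicate 2, and FASN3, a fatty acid synthase gene, 1 in replicate 1.

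Summits in annotated transposable elements were few, but they made up a larger share of members than of euchromatic summits. There were 13 (4.87%; 2.62 to 8.18) against 65 of 24050 (0.27%; adjusted exact p = 1.18e-11), while elements covered 16.1% of the heterochromatic and 4.08% of the euchromatic bases. Both shares, of members and of euchromatic summits, lay below the coverage by elements, and summits per base of element were not compared. Chromosome 4 held 11 of the 13, or 8.4% of its members, against 1.47% in the pericentric blocks (adjusted exact p = 0.0274). Without chromosome 4 the share did not pass against euchromatin (adjusted exact p = 0.0821). The families were 1360 with 5 summits, INE-1 with 4, mariner2 with 2, and diver2, S and F with 1 each; a summit in Cadps lay in both F and 1360. The strongest were the INE-1 copy in CG46466 shown above (76.4; 22.5 and 46.5) and a 1360 copy in the 3' UTR of Hcf (68.7; 20.7 and 25.6), whose window was 91% unique. None was an IDR peak, 5 overlapped a peak of each replicate, and 8 had a wholly unique window.

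Members had a lower GC content than euchromatic summits, as had the sequence around them. Windows of 201 bases around the summits had a median GC content of 35.8% (quartiles 31.3 and 40.3) against 39.8% (33.8 and 45.8) in euchromatin, where the sequence as a whole had 39.4% and 42.4%. On chromosome 4 the median was 34.3%, beside 35.2% for the chromosome.

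Of the 5 words searched, 1 differed in its share between members and euchromatic summits. Words were searched on both strands within 100 bases of the summit. GAGAGAG, the repeat bound by GAGA factor and CLAMP, was present in 1.5% of members (4 of 267; 0.41 to 3.79) and 4.97% of euchromatic summits (adjusted exact p = 0.0124), but the difference did not pass in replicate 1 alone (1169 of 23954 euchromatic summits against 7 of 270, adjusted exact p = 0.126). The share of all annotated TSSs of these arms with it in a window of the same length was 4.36%. TATCGATA was found in 3.75% of members and 2.69% of euchromatic summits (adjusted exact p = 0.308), beside 5.54% of TSSs. Its 10 members include PlexA, PMCA, vtd, Eph and Crk at promoters, and ey and snoRNA:CD-24 in intergenic sequence. GGTCACACT was found in 1.12% and 1.63% (adjusted exact p = 0.805), beside 3.64% of TSSs, and its 3 members, Rad23, Dyrk3 and apolpp, were all promoters of chromosome 4 with IDR peaks. CAGCTG was found in 6.74% and 9.61% (adjusted exact p = 0.157), beside 12.2% of TSSs, and passed in replicate 1 alone (adjusted exact p = 0.0483). AAAAAAAA was found in 11.6% and 13.1% (adjusted exact p = 0.571), beside 11.3% of TSSs. A word in a window is a match of letters and not a bound site.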

How the data were processed

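CG7101-GFP ChIP-seq of 2 biological replicates was analysed from the peak lists that the authors deposited for each replicate, for both pooled and after an IDR step, in dm6 coordinates per the labels. The notes deposited with the lists record a control, not analysed here. Aligner, caller, IDR threshold: not given in the sources used here. The authors' signal is the strength of a peak, and the deposited −log10 q values were used only to describe the lists. The pooled and replicate lists stop at 30000 peaks, a limit that sets which weak peaks they hold. Read depth is unknown.

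A summit is the peak start plus its offset, printed counting from 1. Genes, TSSs and transposable elements came from Ensembl release 115 and sequence from Release 6, whose arm lengths were compared with dm6. Shares were compared by two-sided Fisher's exact tests and densities by two-sided exact conditional binomial tests of rates on sequence without N, adjusted by Benjamini-Hochberg within each family, at a threshold of 0.05. Intervals are exact at 95% and cover counting error only. Overlap needed 1 bp; a member takes the strength of the overlapping replicate peak with the nearest summit. Gene counts carry no test. Named were the 20 strongest members, the 3 strongest of each block, the listed genes, the 2 strongest in transposable elements and those next to the bounds; others were named after their values were seen.

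The regions, lists and words were chosen with earlier results of these data known. Chromosome 4 against the pericentric blocks, the split of density at promoters, the unique length and the removal of summits in transposable elements were added after seeing the data. The tests were tested on simulated data. Versions were scipy 1.17.1, pandas 2.3.3, numpy 2.4.6, matplotlib 3.10.9 and Python 3.11.15.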

Additional observations from a re-analysis of the deposited data

How the results depend on the processing

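The density ratios kept their direction and passed under every alternative run: all summits between 0.0463 (without chromosome 4) and 0.152 (unique sequence), promoters between 0.371 (IDR peaks) and 0.774 (without replicate 1), others between 0.0263 and 0.0993. The shares of introns and, but for the IDR peaks, of promoters (difference 11.9 percentage points, adjusted exact p = 0.231) did so too. The other differences, in percentage points, lost the threshold in places, and the cause was not tested. The share above the median strength was −6.7 in the 15000 strongest peaks and −5.18 with the bounds moved 250 kb inward. It was −4.55 against the 2 Mb of euchromatin next to the bounds, −6.82 without summits in transposable elements and −5.99 without replicate 2. Its −9.34 without replicate 1 passed. The share in both replicates was −2.09 in IDR peaks, −6.42 at promoters and −4.4 counted from the list of replicate 1. Its −17 counted from the list of replicate 2 passed. In the settings without a replicate, the list of the other replicate was used. The IDR share and the share in both replicates still draw on both replicates there, so neither replicate is left out of them. The IDR share was −7.16, −4.6, −4.79 and −5.61 under the first 4 of these settings. The share in transposable elements was 1.2 without chromosome 4 and turned to −0.172 in IDR peaks, where it is 0 of 41 members. GAGAGAG was −5.11 in IDR peaks, −3.7 in the 15000 strongest, −2.76 without chromosome 4 and −2.29 without replicate 2. Its −3.17 without replicate 1 passed. CAGCTG passed in the 15000 strongest (−6.87) and without replicate 2 (−4.09), but not without replicate 1 (−2.72). Word differences that never passed turned sign for TATCGATA (−0.555 in IDR peaks, −0.489 without chromosome 4, −2.15 at promoters), GGTCACACT (4.58 in IDR peaks, 0.02 in the 15000 strongest) and AAAAAAAA (2.19 against the 2 Mb next to the bounds, 2.09 at promoters). By block, the IDR share of 2L lost the threshold without replicate 1 (adjusted exact p = 0.0592), as did the strength shares of 3R (0.27) and X (0.0762); the IDR share of X passed without replicate 1 (0.0134) and without replicate 2 (0.0101), and the promoter share of 3R without replicate 2 (0.0346). Against euchromatin, chromosome 4 differed by −3.81 to 7.6 in the strength share and by −6.18 to 0.768 in the IDR share in the lists of single replicates. Neither passed the threshold. The share of chromosome 4 in both replicates fell below when counted from the list of replicate 2 (−20.3). That of 2L was 2.13 above when counted from the list of replicate 1. The strength scale and read depth are unknown, and peaks are not replicates. No paired analysis was possible because there is 1 group.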
